A study of Mus musculus with 24 samples.

Results

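The comparison described here is the effect of prenatal stress on 5-hydroxymethylcytosine (5hmC) in the striatum of female mice heterozygous (het) for Cntnap2. Its members are the 32176 autosomal regions of the deposited count table that sets 3 stressed het mice against 3 control het mice, out of 32205 regions in that table (29 lie on chromosome X) and 160195 regions in the 5 tables of the series. Every autosomal region of that table was taken, whatever its values, but the sources used here do not state how the authors chose the regions listed there. All mice were of the C57BL/6 strain, and the labels give each as heterozygous without naming the allele. The dams of the stressed mice went through 7 days of variable stress from embryonic day 12.5, and the control mice carried the same genotype without that exposure. Pups of both groups were ear-tagged on postnatal day 12 and weaned on day 18, and the sources used here do not give the age at sacrifice. DNA and RNA were both extracted from a micropunch of about 30 mg, so each value is a mean over all cells of the punch. The labels do not say whether mice of a group were littermates, so the spread behind each p-value may not cover differences between litters. That spread was also pooled over regions or genes, and for RNA it came from all 12 libraries, wild-type mice included.

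5hmC is made from 5-methylcytosine by the TET enzymes, which need oxygen, iron and 2-oxoglutarate. It is an intermediate on the way back to unmethylated cytosine through base excision repair, and in neurons it is also abundant and long-lived, mostly within genes and at distal regulatory elements. Cntnap2 encodes Caspr2, a cell adhesion protein of neurons that clusters potassium channels beside the node of Ranvier. In an enrichment assay, DNA fragments that carry 5hmC are captured and sequenced, so that a read count gives the relative amount of the mark in a region and not the share of cytosines modified.

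Between them the 6 libraries held 1276254 to 2858355 counts in these regions. Stressed replicates 2 and 3 were the shallowest (1276254 and 1609609 counts, with a median of 30 and 36 counts per region), while stressed replicate 1 held 2462872 and the controls 1821714 to 2858355. Stressed replicate 1 also resembled the controls more than its own group. Over all regions of the table but the most counted one, its log2 counts per 1000000 (CPM) correlated at r = 0.825 to 0.853 with the 3 controls. With the other stressed libraries they correlated at 0.792 and 0.795, a description across regions that also carries depth. Cntnap2 RNA did not separate the genotypes: it lay between 36.0 and 59.5 transcripts per 1000000 (TPM) in the 6 het mice and between 39.7 and 68.3 in the 6 wild-type mice, so the genotype rests on the labels. Striatal neuron markers such as Ppp1r1b and Penk were abundant in each RNA library (summed TPM of 8 markers 3727 to 7718).

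The punches were not identical in makeup. The summed TPM of the cortical markers Slc17a7 and Tbr1 was 102, 142 and 101 in the stressed het mice and 73.0, 29.2 and 10.2 in the controls, so that the groups did not overlap. Blood RNA, read from the 1 globin gene measured, Hba-a1, was lower in the stressed libraries (148 to 207 TPM) than in the controls (225 to 265 TPM), again without overlap. Control replicate 1 had the lowest sums of striatal (3727) and of oligodendrocyte markers (3786 against 7211 to 8651 elsewhere). The summed TPM of 5 choroid plexus markers was high in control replicates 1 and 2 and in stressed replicate 3 (482, 850 and 571). It was low in the other 3 libraries (9.01 to 15.7). Ttr made up most of the high sums (468, 826 and 549 TPM). Clic6 did not follow them, with 3.98, 7.29 and 6.06 TPM against 4.52 to 6.31 TPM in the other 3. The part of tissue makeup and depth in the 5hmC differences was not tested. The RNA file of control replicate 1 also carries another animal number than its 5hmC column, so it is unsure whether both came from the same mouse.

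Most of the 5hmC regions were short. Their width ran from 1001 to 9095 bp with a median of 1121 bp, and together they spanned 41.8 Mb. Their density, the mean CPM per kb over the 6 libraries, had a median of 19.4, and 90% of regions lay between 13.5 and 28.0. Differences between stressed and control het mice were small: the median log2 fold change (stressed minus control, as everywhere below) was -0.003, 90% of regions lay between -0.38 and 0.38, and the median standard error was 0.19. Only 10 regions differed by more than 2-fold in either direction, and 499 (1.55%) by more than 1.5-fold. Positions are given in mm9, as in the deposited table. No annotation of that build was used, so the genes in or near a region were not analysed here.

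Of the 32205 regions tested with edgeR's quasi-likelihood test, 2 passed an adjusted p of 0.05, or 0.00621%. One was lower and one higher in the stressed mice. The lower one, chr11:97696925-97697931 (1007 bp), held 13.4, 7.14 and 9.08 CPM in the 3 stressed mice and 24.5, 28.3 and 21.6 CPM in the controls. The least covered control was thus well above the best covered stressed mouse. The difference was -1.24 ± 0.22 (SE, n = 3 per group), a 2.35-fold fall, with an edgeR adjusted p of 0.00446.

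The higher one, chr16:76796204-76797476 (1273 bp), held 20.8, 19.8 and 29.2 CPM in the stressed mice and 8.16, 11.9 and 10.8 CPM in the controls. All 3 stressed mice lay above all controls, and the difference was 1.12 ± 0.22, a 2.18-fold rise (edgeR adjusted p = 0.0247). These values rest on 9 to 83 counts per library in the region on chromosome 11 and on 15 to 51 in the region on chromosome 16. Both calls depended on single libraries. Without stressed replicate 2, stressed replicate 3 or control replicate 2, neither passed edgeR's adjusted p of 0.05 (adjusted p 0.104 to 0.248 on chromosome 11 and 0.0742 to 0.413 on chromosome 16), although the direction held in each case. With loess offsets the chromosome 16 region also missed it (1.05, edgeR adjusted p = 0.0607). DESeq2 called neither and no other region, with 903 regions at an unadjusted p under 0.05 against 3203 by edgeR.

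Other tables of the series give these regions in wild-type mice, each scaled on its own. The chromosome 11 region held 14.9 ± 3.45 CPM (SD, n = 3) in unstressed wild-type mice and 21.5 ± 2.74 CPM in the same het controls when both were scaled together. The chromosome 16 region held 13.6 ± 2.26 CPM in unstressed wild-type mice beside 23.3 ± 5.08 CPM in the stressed hets, and 19.4 ± 7.11 CPM in stressed wild-type mice beside 28.3 ± 5.97 CPM in the stressed hets in another table. These tables share the het libraries with the comparison above and add no independent evidence on it. Neither region was listed in the table of stressed against control wild-type mice. The chromosome 11 region was also absent from both tables that set stressed hets against wild-type mice. The chromosome 16 region was absent from the table of het controls against wild-type controls. Each was thus listed only in tables that hold the group in which it was high.

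**Figure D1:**
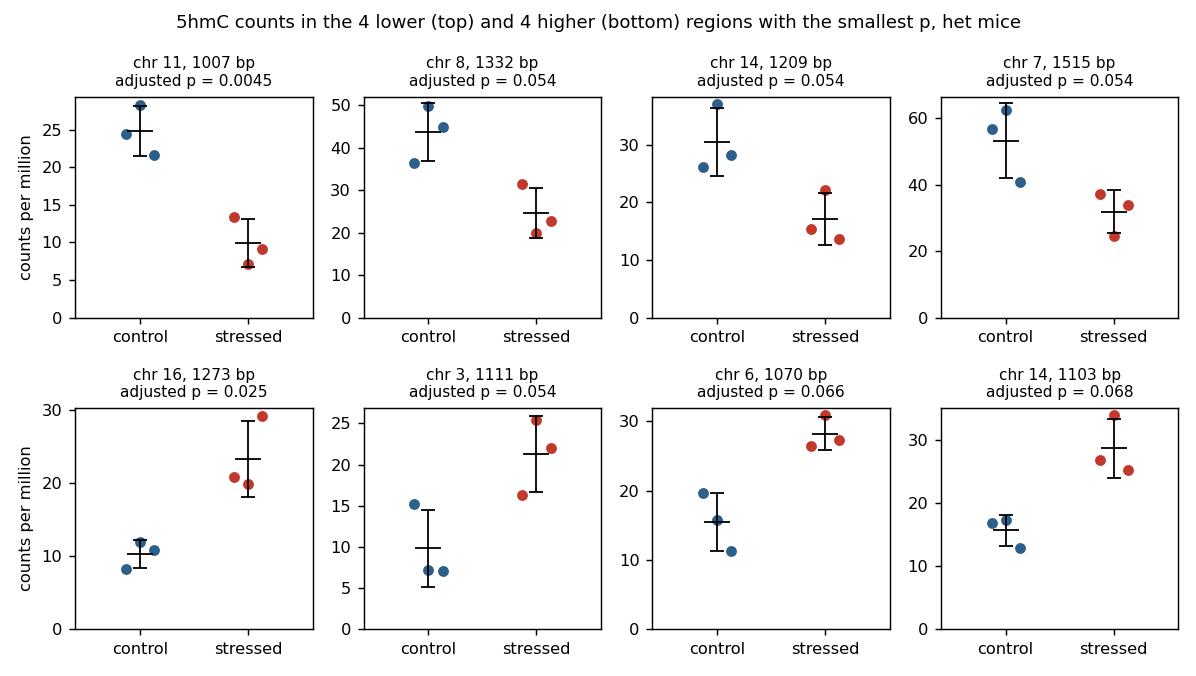
CPM (linear axis from 0) in each of the 3 control (blue) and 3 stressed (red) het mice for the 4 lower regions of smallest p (top) and the 4 higher ones (bottom), with mean and SD in black. In all 8 panels the 2 groups do not overlap, but only the leftmost region of each line has an adjusted p under 0.05 (0.0045 and 0.025).

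The 10 higher and 10 lower regions of smallest p were examined further. They were picked by p, so their size and separation are a description. In all 20 the groups did not overlap, as in 15.4% of all regions tested (7.85% higher and 7.5% lower). The 10 higher regions lay on 10 different chromosomes, with fold changes of 0.49 to 1.13. After the called region the next were chr3:78405890-78407000 (16.3, 25.4 and 22.1 CPM against 15.2, 7.16 and 7.07; 1.13 ± 0.25, edgeR adjusted p = 0.0543) and chr6:148576200-148577269 (26.5, 30.9 and 27.3 CPM against 19.6, 15.7 and 11.2; 0.87 ± 0.20). On chromosome 3 control replicate 1 came close to stressed replicate 1, whereas on chromosome 6 a wider gap parted the groups. The most densely covered of the 10, chr12:75904500-75905999, held 193, 185 and 259 CPM in stressed mice against 174, 131 and 150 in controls (0.49 ± 0.12).

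The 10 lower regions fell on only 5 chromosomes, 4 of them on chromosome 11 and 3 on chromosome 14, with fold changes of -1.24 to -0.69. Beside the called one, chromosome 11 carried chr11:114958696-114959746 (12.6, 11.9 and 15.6 CPM against 28.3, 23.2 and 24.9; -0.91 ± 0.21), chr11:88312051-88313599 (-0.80 ± 0.18) and chr11:75837992-75838999 (-0.89 ± 0.21). These 4 are at least several Mb apart, so they are no cluster of neighbours. Chromosome 14 carried chr14:46144083-46145291 (15.5, 22.2 and 13.6 CPM against 26.1, 37.2 and 28.3; -0.90 ± 0.19), chr14:121701400-121702999 (-0.69 ± 0.15) and chr14:35905600-35906600 (-0.84 ± 0.19). The others were chr8:124136400-124137731 (-0.78 ± 0.17), chr7:148824285-148825799 (-0.70 ± 0.15) and chr16:87706900-87708199 (-0.82 ± 0.18). In the wild-type stress table, made from other mice, 3 of the 10 lower and 3 of the 10 higher regions had an overlapping region. Its fold changes there were 0.10 to 0.14 for the lower ones and -0.09 to 0.16 for the higher ones, and the groups overlapped in all 6. The share of overlap over the whole wild-type table is not given here. The remaining higher regions were listed elsewhere only in the tables that hold the stressed hets. The remaining lower regions were listed elsewhere only in the table of het controls against wild-type controls. Whether regions were listed through the group in which they were high was not tested.

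Below these, 29 autosomal regions passed an adjusted p of 0.1, of which 21 were lower and 8 higher. At an unadjusted p under 0.05 there were 1578 higher and 1622 lower autosomal regions (9.95% of all regions tested, 4.91% higher and 5.04% lower), and in 2525 and 2416 the groups did not overlap. The near balance of directions depended on scaling. With library totals in place of the trimmed mean of M-values (TMM), the median of all regions moved to -0.06 and 73.8% of regions with an unadjusted p under 0.05 were lower, against 50.6% with TMM. Upper-quartile scaling gave 41.4%. The number of called regions ranged from 0 without stressed replicate 2, stressed replicate 3 or control replicate 2 to 60 without control replicate 1, and was 42 without stressed replicate 1 and 29 without control replicate 3.

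A few regions took a large part of all counts. The region chr2:98501990-98507999 (6010 bp) alone held 14.5, 15.4 and 17.9% of the counts of the stressed libraries and 13.9, 12.1 and 12.7% of those of the controls. The share was thus higher in each stressed library than in every control, and edgeR gave 0.36 ± 0.21 (adjusted p = 0.559). The next by density were chr9:35112300-35113499 (5009, 5606 and 6764 CPM against 4879, 4168 and 4258; 0.39 ± 0.20), chr12:3109474-3110637 (0.35 ± 0.19), chr9:2999662-3003299 (0.39 ± 0.20) and chr6:103598595-103599649. The last held 809, 949 and 1187 CPM in the stressed mice and 814, 560 and 557 CPM in the controls (0.61 ± 0.17, edgeR adjusted p = 0.168), so control replicate 1 overlapped stressed replicate 1. The widest region, chr9:3015000-3024094 (9095 bp), had 0.42 ± 0.20, and chr2:6281509-6287699 (6191 bp) had -0.02 ± 0.12.

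A limit of 200 CPM per kb, set after the values were seen, took in 13 autosomal regions, 6 of them at the start of chromosome 9. Of these, 12 were higher and 1 lower (chr4:118219800-118221599, -0.81 ± 0.18), with a median of 0.39 beside -0.003 for all regions. In 9 the groups did not overlap, beside 15.4% of all regions tested. Stressed replicate 3 was the highest library in each of the 12 higher regions, so they are not separate observations. None of the 13 was called. Together they held 16.9, 17.9 and 20.9% of counts in the stressed mice (18.5 ± 2.10, SD, n = 3) and 16.2, 14.1 and 14.7% in the controls (14.996 ± 1.06). The groups did not overlap, but stressed replicate 1 was within 1 percentage point of control replicate 1. In the stressed against control wild-type mice the same 13 regions had a median of 0.05 (-0.23 to 0.10), and in none did the groups separate. The share of separated regions over that table is not given here. Wild-type replicates also differed widely. The chromosome 2 region held 198097 CPM in wild-type stressed replicate 1 but 125590 and 123295 CPM in replicates 2 and 3. Its SE was 0.49 in wild-type and 0.21 in het mice, so a rise particular to the hets was not shown. Such counts depend on how reads with many near-identical placements were treated, which the sources used here do not state. With offsets that remove a trend with count (loess), the 4 densest of these regions other than the one on chromosome 6 turned to -0.19, -0.04, -0.01 and -0.03. The offsets were fitted on the same regions, so this is a description.

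**Figure D2:**
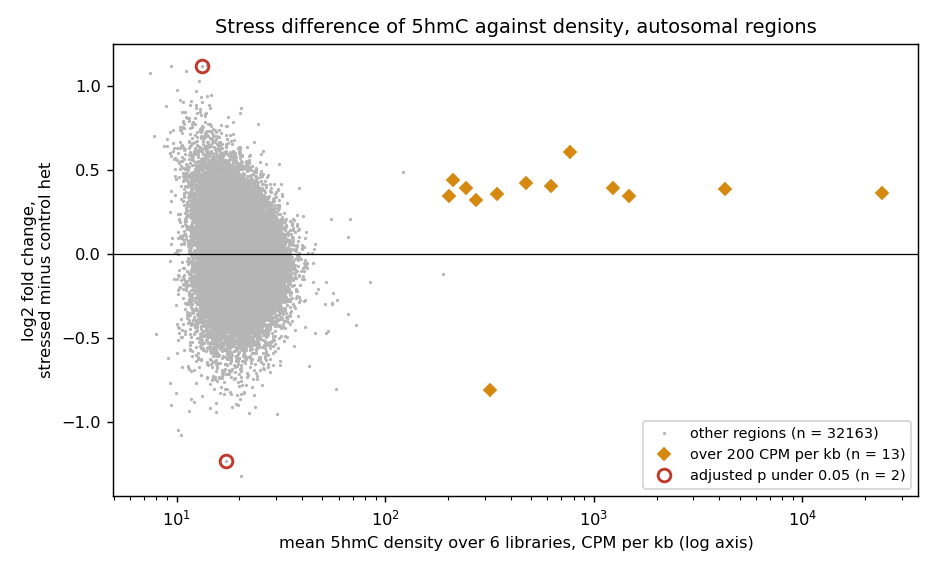
Log2 fold change of each autosomal region (stressed minus control het) against its mean density in CPM per kb on a log axis. The 13 regions over 200 CPM per kb (orange) sit near a median of 0.39 with 1 exception at -0.81, and the 2 regions with an adjusted p under 0.05 (red circles) have ordinary density.

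Among the bulk of regions, the stress difference varied with density. Regions were split into 10 classes of equal number by density. In the class of lowest density (7.45 to 14.6 CPM per kb) the median fold change was 0.11, and it fell from each class to the next, to -0.06 in the class of highest density. Of the regions with an unadjusted p under 0.05, 395 were higher and 106 lower in the lowest class, and 47 higher and 242 lower in the highest. By the median region, sparse regions thus tended to be higher in the stressed mice and dense ones lower, apart from the few extreme regions above. These values describe regions and not mice. Without the most counted region, the lowest class held 6.32, 6.28 and 6.86% of autosomal counts in stressed mice and 6.27, 5.94 and 6.06% in controls. The highest class, which includes the other extreme regions, held 16.37, 15.76 and 15.96% against 16.11, 15.79 and 16.22%, so the groups overlapped. In overlapping regions of the wild-type table, grouped by the same classes, the medians ran from 0.007 in the lowest to 0.04 in the highest. The difference between the genotypes was not tested. The gap between lowest and highest class was 0.16 in the het mice. It was 0.09 without stressed replicate 3, 0.15 to 0.24 without any 1 of the other libraries, and 0.10 with loess offsets. Depth moves with this pattern, since the 2 shallowest libraries are stressed ones, and its part was not tested. Listing moves with it too. Of 3218 regions in each class, 1065 of the lowest and 2329 of the highest overlapped a region of the wild-type table. Regions may have been listed through the group in which they were high, and the part of this in the pattern was not tested.

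**Figure D3:**
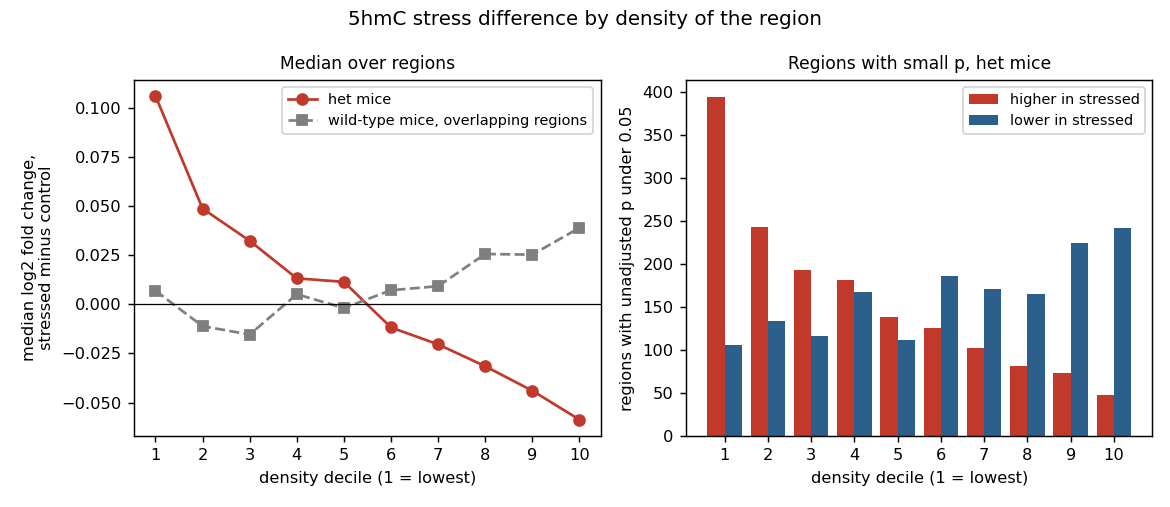
Left, median log2 fold change (stressed minus control) of regions in 10 classes of rising density, in het mice (red) and in overlapping regions of the wild-type table (grey). Right, number of regions with an unadjusted p under 0.05 that were higher (red) or lower (blue) in stressed het mice. The het median falls from 0.11 to -0.06, and the counts turn from 395 higher and 106 lower to 47 higher and 242 lower.

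Width showed a weaker pattern. The narrowest regions, 1001 to 1008 bp long, had a median of -0.09, with 91 higher and 336 lower at an unadjusted p under 0.05. The widest of 10 such classes by width, from 1876 bp, had a median of 0.03, with 190 higher and 94 lower. Between these extremes the medians stayed within -0.01 to 0.02. The part of how regions were listed was not tested here either.

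Counts of neighbouring regions were then summed in windows of 1 Mb, which ask whether changes too small for a single region were shared along the chromosome. Of 1886 windows with at least 3 regions, 19 passed edgeR's adjusted p of 0.05, or 1.01%, and they lay on 13 chromosomes. In 11 the stressed mice were higher (0.17 to 0.63) and in 8 lower (-0.50 to -0.16). The groups did not overlap in any of the 19, as in 22.2% of all windows. Within the 11 higher windows 182 of 205 regions had a positive fold change, and within the 8 lower ones 73 of 88 had a negative one. The windows were chosen by the sum of the same counts, so this is a description.

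The higher window with the smallest p lay at 47 to 48 Mb of chromosome 12. Its 18 regions summed to 551, 628 and 579 CPM in the stressed mice and to 487, 497 and 474 CPM in the controls. All 18 regions were higher, and the window rose by 0.26 ± 0.05 (edgeR adjusted p = 0.0104). At 18 to 19 Mb of chromosome 15, 23 regions summed to 686, 739 and 804 CPM against 650, 630 and 630 CPM (0.21 ± 0.05, edgeR adjusted p = 0.0215). At 141 to 142 Mb of chromosome 3, 31 regions summed to 822, 867 and 884 CPM against 786, 739 and 739 CPM (0.18 ± 0.04, edgeR adjusted p = 0.0215). In all 3 windows stressed replicate 1 was the stressed library closest to the controls.

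The lower window with the smallest p lay at 82 to 83 Mb of chromosome 18. Its 15 regions summed to 510.5, 480.4 and 476 CPM in the stressed mice and to 567, 603 and 581 CPM in the controls, a fall of 0.25 ± 0.05 on the log2 scale (edgeR adjusted p = 0.0104), with 10 of the 15 regions lower. At 113 to 114 Mb of chromosome 12, 9 regions summed to 266, 244 and 225 CPM against 288, 325 and 299 CPM (-0.30 ± 0.07, edgeR adjusted p = 0.0216). At 166 to 167 Mb of chromosome 2, 10 regions summed to 276, 268 and 245 CPM against 301, 328 and 329 CPM (-0.28 ± 0.06, edgeR adjusted p = 0.0237). Chromosome 12 thus carried both a higher and a lower window among these 6.

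The other 8 higher windows began at 67 and 80 Mb of chromosome 3, 81 Mb of chromosome 9, 67 Mb of chromosome 12, 77 Mb of chromosome 13, 98 Mb of chromosome 14, and 67 and 74 Mb of chromosome 16. The other 5 lower windows began at 169 Mb of chromosome 1, 31 Mb of chromosome 2, 150 Mb of chromosome 5, 124 Mb of chromosome 8 and 118 Mb of chromosome 11. The one on chromosome 8 holds chr8:124136400-124137731, named above. The window on chromosome 13 holds chr13:77577632-77578799, one of the 13 regions over 200 CPM per kb. It had 0.34 (edgeR adjusted p = 0.0216) with that region and 0.12 (edgeR adjusted p = 0.519) in the fit without regions over 200 CPM per kb, a step chosen after seeing the data, while the other 18 windows kept their call there. The median density of regions was 16.0 CPM per kb in the higher windows, 21.6 in the lower ones and 19.04 over all windows, the order in which single regions also differed. The higher windows held a median of 18 regions and the lower ones 9.5, beside 13 over all windows.

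**Figure D4:**
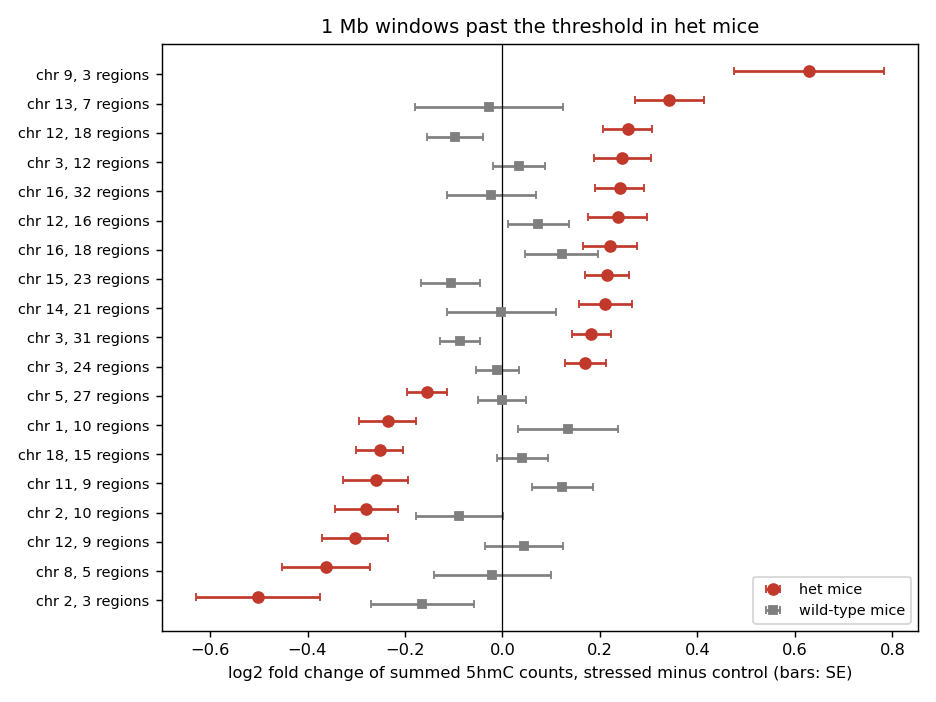
Log2 fold change of summed 5hmC counts (stressed minus control) in the 19 called 1 Mb windows, ordered by the value in het mice (red circles), with the value of the same window in wild-type mice (grey squares); bars are standard errors. The het values run from -0.50 to 0.63 and the wild-type values, present for 18 windows, from -0.16 to 0.13.

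The wild-type mice gave no such calls. Of 1880 windows tested in stressed against control wild-type mice, 0 passed edgeR's adjusted p of 0.05 (0%), with 152 at an unadjusted p under 0.05, against 358 of 1886 in the het mice. Among the 18 called windows also present there, 7 had the same sign, the values lay between -0.16 and 0.13, and in none did the groups separate. The share of separated windows over all wild-type windows is not given here. In some of the 18 the SE was larger in wild-type than in het mice, as at 77 Mb of chromosome 13 (0.15 against 0.07). In others it was smaller, as at 31 Mb of chromosome 2 (0.11 against 0.13). Over 1801 windows in both tables the 2 sets of fold changes, which share no library, correlated at r = 0.06 (Spearman 0.04), and over 19329 overlapping regions at r = 0.02 (Spearman 0.009), with the same sign in 50.3%. These are descriptions across windows and regions. Those regions were 60.1% of the het table and 57.4% of the wild-type table. Whether the stress difference itself differs between genotypes was not tested, because only 447 autosomal regions have identical coordinates in the 2 tables.

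The window calls also rested on few libraries. There were 146 without stressed replicate 1 and 77 without control replicate 1, but 1 without control replicate 2 and 0 without control replicate 3, stressed replicate 2 or stressed replicate 3. DESeq2 called 4 windows. All 19 kept their direction under each alternative run on 1 Mb windows.

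Counts were also summed over whole chromosomes, without the most counted region. No chromosome passed: 0 of 20 had an edgeR adjusted p under 0.05 (0%), with 5 autosomes at an unadjusted p under 0.05. Chromosome 11 held 3.68 ± 0.03% of counts in stressed and 3.79 ± 0.03% in control mice (SD, n = 3), without overlap (-0.03 ± 0.01, edgeR adjusted p = 0.0891). Such shares did not overlap between the groups for 1 higher and 6 lower of the 19 autosomes, chromosomes 9 and 11 among them. Chromosome 16 held 4.66 ± 0.06% against 4.57 ± 0.06% (0.04 ± 0.01, edgeR adjusted p = 0.0891). Chromosomes 2 (0.01), 17 (-0.03) and 7 (-0.03) were the other 3. Leaving out control replicate 1 gave 2 calls, one of them chromosome 11 (edgeR adjusted p = 0.0350).

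With the most counted region left out, chromosome 9 had the widest difference of any autosome, with 7.58 ± 0.38% against 7.01 ± 0.19% and no overlap (0.12 ± 0.05, edgeR adjusted p = 0.181). Without the regions over 200 CPM per kb, a step chosen after seeing the data, it was -0.004. Apart from it no autosome moved by more than 0.04. With the most counted region kept, chromosome 2, which holds it, had 0.26 (edgeR adjusted p = 0.165) in place of 0.01, and chromosome 9 had 0.12. The median fold change of single regions ran from -0.04 on chromosome 7 to 0.03 on chromosome 16, and the share of lower ones among regions with an unadjusted p under 0.05 from 34.0% on chromosome 16 to 63.3% on chromosome 7.

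RNA of the same groups was compared to see whether expression moved with the mark. In these libraries (21410120 to 24039691 expected counts in the het mice), 0 of 15955 genes passed edgeR's adjusted p of 0.05 (0%), with 179 (1.12%) at an unadjusted p under 0.05. DESeq2 likewise called 0, with 195 at an unadjusted p under 0.05. The smallest adjusted p was 0.999952, so the genes below are those of smallest p and not changed genes.

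Among genes with higher RNA in stressed hets, Htr2a, which encodes a serotonin receptor abundant in cortex, was at 7.92, 7.87 and 6.48 TPM against 2.41, 3.83 and 4.29 TPM (0.87 ± 0.18 on counts). Its groups did not overlap. The cortical markers above moved the same way, and the part of tissue makeup in the Htr2a difference was not tested. The others were Sgcd, a sarcoglycan (1.37), Ndst4, an enzyme of heparan sulfate synthesis (1.28), Fgf2, a growth factor (1.62), and Epha5, an ephrin receptor (0.56). The lower genes were Slc16a8, a monocarboxylate transporter (0.18, 0.29 and 0.30 TPM against 0.66, 0.92 and 0.73; -1.82 ± 0.34), Gstm2, a glutathione transferase (-1.05), Fscn2, an actin-bundling protein (-1.44), Clec4a2, a lectin receptor of myeloid cells (-0.96), and Rspo1, an activator of Wnt signalling (-0.75). Most of these are expressed at a few TPM or less.

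Genes that write, convert, read or remove the mark gave no call. Of 35 listed genes 33 were tested (Dnmt3b and Dnmt3l were too low), and 0 had an unadjusted p under 0.05. On counts scaled by TMM, 14 were higher and 19 lower, with a median of -0.01 beside 0.00 for all genes. The TPM gave another picture: 30 had a higher mean TPM in the stressed mice, 16 of them with a negative fold change on counts. Control replicate 1 was the lowest of the 6 libraries for 28 of the 33. The matching shares over all genes were not computed on the TPM scale, so whether this is particular to the list is not known. The list thus has no direction that holds on both scales.

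The TET enzymes, which convert 5-methylcytosine to 5hmC, were at 0.53, 0.50 and 0.56 TPM (Tet1), 2.34, 2.78 and 3.13 TPM (Tet2) and 3.10, 3.28 and 3.11 TPM (Tet3) in the stressed mice. In the controls Tet1 was at 0.13, 1.06 and 1.17 TPM, Tet2 at 0.83, 2.65 and 2.68 TPM and Tet3 at 0.67, 3.72 and 4.48 TPM. For all 3 control replicate 1 was far below the rest, and the fold changes on counts were -0.13 ± 0.51, 0.25 ± 0.35 and -0.01 ± 0.57. On the TPM scale, which allows for length, Tet1 was the lowest of the 3 in every library.

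The DNA methyltransferases Dnmt1, which copies methylation after replication, and Dnmt3a, which sets it anew and is the main one in neurons, had 0.16 ± 0.24 and 0.01 ± 0.42. Of the methyl-CpG binding proteins, Mbd1, Mbd2, Mbd3 and Mbd4 had -0.12 to 0.15. The glycosylases that remove oxidised bases, Tdg and Smug1, had 0.05 ± 0.15 and -0.20 ± 0.21, and Neil1, Neil2 and Neil3 had -0.16, -0.01 and 0.36. In the repair steps after them Apex1, Xrcc1 and Parp1 had -0.08, 0.06 and 0.14. The isocitrate dehydrogenases, which make the 2-oxoglutarate that TET enzymes use, had -0.04 (Idh1), -0.15 (Idh2) and 0.04 (Idh3a). Idh1 shows how the scales part: it was at 28.4, 30.1 and 33.6 TPM in stressed mice and 24.4, 22.7 and 23.5 TPM in controls, without overlap.

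The extremes of the list were Uhrf1, a partner of Dnmt1 (-0.45 ± 0.46, although its mean TPM was higher in the stressed mice), and Wdr76, a protein found with 5hmC-bearing DNA (1.65, 1.64 and 1.97 TPM against 0.71, 1.18 and 1.49 TPM; 0.44 ± 0.21). The remaining 11 members, among them Gadd45a, Gadd45b and Gadd45g, which are linked to demethylation through repair, and Ogt, a sugar transferase bound to TET proteins, lay between -0.25 and 0.12. On counts the groups did not overlap for 2 of the 33, Wdr76 (higher) and Neil1 (lower), beside 6.68% of all genes.

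A link of single regions to genes was not analysed here, so 5hmC and RNA can be set side by side only by chromosome. Chromosomes were looked up by symbol for 94.1% of the genes tested. The median RNA fold change per autosome ran from -0.03 on chromosome 17 to 0.04 on chromosome 18. Over the 19 autosomes it correlated with the median 5hmC fold change at r = 0.46 (Spearman 0.51), and with the 5hmC chromosome sum at r = 0.09 (Spearman 0.34). The median 5hmC fold change correlated with the number of RNA genes tested per 100 regions at r = -0.72 (Spearman -0.62). The gene-rich chromosomes 7 and 11 (107 and 98.0 RNA genes per 100 regions) had the lowest 5hmC medians beside chromosome 17 (55.7), and chromosome 16 (29.6) the highest. These are descriptions over 19 points from the same 12 libraries, all within 0.04 of 0.

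**Figure D5:**
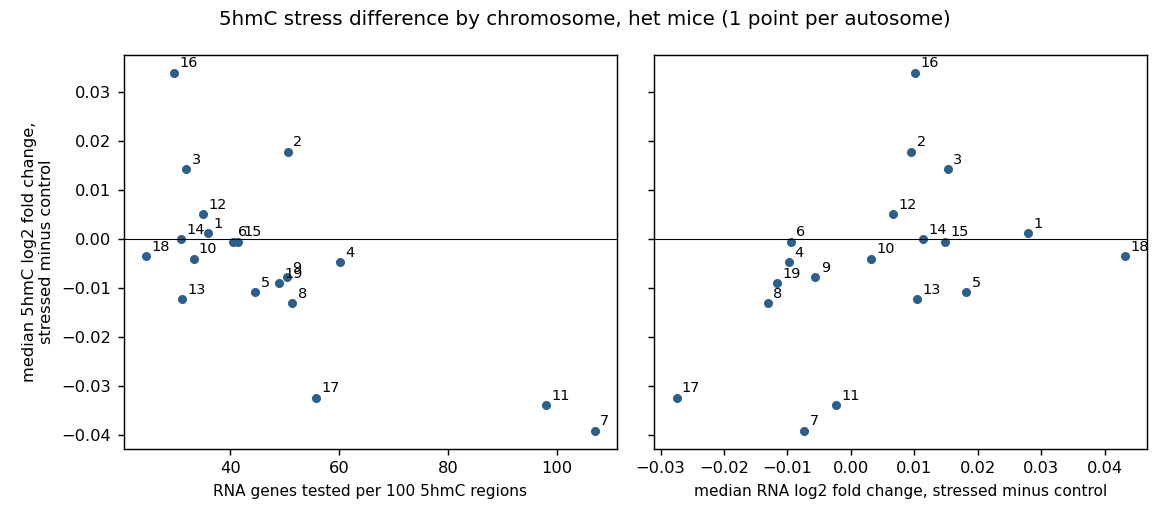
Median 5hmC log2 fold change (stressed minus control het) of each autosome, labelled by its number, against the number of RNA genes tested per 100 regions (left) and the median RNA log2 fold change (right). Chromosomes 7, 11 and 17 lie lowest at -0.04 to -0.03 and chromosome 16 highest at 0.03.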

How the data were processed

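The members, lists and windows were chosen with earlier results of these data known. Per the labels, libraries were built from 5hmC-enriched DNA. The submitters' processing notes name Bowtie 0.12.7 and mm9. In the deposited table each region has an unnormalized read count for each library, and how the authors chose the regions is not stated in those sources. For RNA, the deposited files hold expected counts and TPM per gene that the authors made with RSEM and Bowtie, per the submitters' processing notes and the file headers.

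Region counts were tested in R 4.3.3 with edgeR 4.0.16 (TMM, robust glmQLFit, glmQLFTest, two-sided, 2 group means, no filter), and p-values were adjusted by Benjamini-Hochberg over all 32205 regions, with calls at 0.05. A standard error is the fold change divided by the square root of F. Sums over 1 Mb windows (at least 3 regions, by midpoint) and over chromosomes (without the most counted region) were tested likewise. CPM used TMM-scaled library sizes; groups whose 3 values did not overlap were counted as separated. Regions of 2 tables overlapped if they shared at least 1 bp. Expected counts were rounded, filtered with filterByExpr and fitted over all 12 RNA libraries. DESeq2 1.42.0 and limma 3.58.1 served as alternatives. As a check for duplicates, the mean chi-square per region between libraries of a group was 1.11 to 1.53, above that of sampling alone. A few regions of high count can raise such a mean, so libraries made from the same DNA are not excluded. The region fit was tested on simulated counts. With the interaction planned only for 500 or more identical regions, it was not fitted. Chromosomes of genes came from a RefSeq table of GRCm38.p6, whose coordinates were not used. Text names the called regions and windows and those of smallest p (10 regions, 3 windows, 2 chromosomes and 5 genes per direction), the 5 densest and 3 widest regions, and the genes of the 5hmC list (1 gene of it and 1 cortical marker are not reported here); chromosomes 7 and 9, the regions over 200 CPM per kb and the windows beyond the first 3 per direction were added after their values were seen. Counting precision is limited by the 30 to 70 counts of a median region.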

Additional observations from a re-analysis of the deposited data

How the results depend on the processing

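The count of called regions, 2 in edgeR with TMM, was 0 with DESeq2, 11 with library totals, 15 with limma-voom and sample weights, 20 without robust estimation, 1 with loess offsets (the chromosome 11 region) and 7 with totals computed without the most counted region, the last chosen after seeing the data. Leaving out 1 library gave 0 to 60. With the replicate block it was 17 (the labels do not say that the numbers pair mice, and same-numbered libraries correlated at -0.07 to -0.05); the block gave 18 windows, 15 of them among the 19, with those at 124 Mb of chromosome 8, 169 Mb of chromosome 1, 80 Mb of chromosome 3 and 98 Mb of chromosome 14 lost (adjusted p 0.0501 to 0.0683 in edgeR), and changed no count of chromosomes or genes called. In place of the 19 called windows there were 3 at 5 Mb and 0 to 146 without 1 library. Only 2 of the 19 were matched to a 5 Mb window, by a shared start, and 0 of these were called there. Alternatives chosen after seeing the data gave 4 with DESeq2, 29 with library totals, 43 with loess offsets and 21 without regions over 200 CPM per kb. Chromosome sums had 0 to 2 calls without 1 library. The 20 regions of smallest p kept their direction throughout, and the 19 windows did so in each alternative run on 1 Mb windows. The 6191 bp region on chromosome 2 (region_2_6281509) ranged from -0.153 to 0.0523 without 1 library. Loess offsets turned region_2_98501990 to -0.1901, region_9_35112300 to -0.0429, region_12_3109474 to -0.0148 and region_9_2999662 to -0.0314. These offsets were fitted on the same regions, so this is a description. The chromosome 9 sum became -0.004 without regions over 200 CPM per kb.

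Genes of the 5hmC list with a small fold change on RNA counts changed sign, the cause of which was not tested. With the replicate block Tet1 was 0.069, Tet3 0.2501, Neil2 0.0075 and Idh1 0.0003, with DESeq2 Dnmt3a was -0.005, and without a filter Neil2 was 0.002 and Cxxc5 0.0061. Without 1 library the ranges were -0.5059 to 0.1912 for Tet1, -0.0376 to 0.4446 for Tet2, -0.4335 to 0.3056 for Tet3, -0.3453 to 0.3153 for Dnmt3a, -0.0026 to 0.1441 for Uhrf2 and -0.0738 to 0.1312 for Tdg. They were -0.24 to 0.3271 for Neil2, -0.1874 to 0.095 for Apex1, -0.032 to 0.1368 for Xrcc1, -0.1011 to 0.0449 for Gadd45a and -0.2005 to 0.2833 for Idh1. They were -0.0369 to 0.1839 for Idh3a, -0.0039 to 0.2107 for Ogt, -0.2791 to 0.1619 for Hells, -0.0498 to 0.0362 for Cxxc5, -0.3701 to 0.1976 for Thyn1 and -0.0651 to 0.1503 for Zscan21. The calls of RNA genes stayed at 0 in all alternatives. The interaction and its alternatives were not run, as too few regions were identical.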

Other observations

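The lines of the deposited table are not in genome order. Within each of the 19 autosomes the line number followed the edgeR p computed here (Spearman 0.981 to 0.986) and not the position (at most 0.05 in size). The first line of chromosome 11 is the region that fell and that of chromosome 16 the region that rose, and the first lines of chromosomes 3, 7, 8, 12 and 14 are also among the 20 regions named above. Some regions stand in the first 20 lines of their chromosome with an edgeR p above 0.05. One is chr4:50179697-50180697, with 28.1, 27.0 and 35.0 CPM in the stressed mice and 31.5, 4.09 and 22.0 CPM in the controls, so that only control replicate 2 was low. Another is chr17:3081100-3082204, with 27.7, 19.04 and 22.7 CPM against 27.7, 79.1 and 25.4 CPM, where only control replicate 2 was high. In both, the other 5 libraries overlapped between the groups.

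Neighbouring regions differed alike a little more often than not. Adjacent regions less than 2000 bp apart had the same sign in 55.1% of 4192 pairs (r = 0.15), and in the 3 classes of wider gaps the share was 52.8%, 53.9% and 54.01% (r = 0.11, 0.10 and 0.12). Each of the 32176 regions overlapped a region of at least 1 other table, and 12320 (38.3%) overlapped a region in all 4 others. The median fold change of these shared regions was 0.06, beside -0.003 over all, and their median density was 20.1 CPM per kb beside 19.4. They were also wider, with a median of 1232 bp beside 1121 bp.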
